A study of Xenopus laevis with 4 samples.

Results

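Zinc finger genes of the znf series were examined in *Xenopus laevis* at stage 10.5, the early gastrula of control embryos. The treated embryos were depleted of the TATA-binding protein TBP and its relatives TBP2 and TLF. The members were chosen by name: an entry belongs to the family if its symbol, without the final .L or .S, starts with znf and a digit. This gave 135 of the 45098 entries of the deposited table, under 78 symbols. The triple-knockdown (TKD) samples, 2 in number, came from embryos injected at the 1-cell stage with antisense oligonucleotides against tbp, tbp2 and tlf. The labels give 0.8 ng for the mixture, whereas the study's methods give a separate amount for each oligonucleotide, not the same for all. The control samples, also 2, came from water-injected embryos. Each sample held 10 whole embryos at stage 10.5, so each value is an average over all germ layers, and fewer cells of a type cannot be told apart from less RNA per cell. The controls received no control oligonucleotide, so in these samples an effect of injected oligonucleotide as such cannot be told apart from the loss of the factors. The paper states that earlier control oligonucleotides and rescue experiments had established the specificity of its knockdown reagents. It also reports that TKD embryos arrested without entering gastrulation, and that involution of cells was not seen in them. Each difference between the groups is therefore also one between arrested and control embryos. The part of this arrest in the results for znf genes was not tested.

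A classical zinc finger is a short loop of protein in which pairs of cysteines and histidines hold a zinc ion, and it was first recognized in TFIIIA, a transcription factor of *Xenopus* oocytes. Proteins with arrays of such fingers usually bind DNA, and others bind RNA or other proteins. The name znf marks a gene only as encoding a zinc finger protein, so the family mixes transcription factors with proteins of the spindle, the ribosome and RNA processing. *X. laevis* is allotetraploid, and most of its genes have an L and an S homeolog with separate entries, between which reads from identical stretches could be split in an unknown way.

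The oligonucleotides are shown because they define the TKD samples. Capitals mark the bases joined to each other by unmodified linkages, which allow RNase H to cut the bound mRNA, and lower case marks the flanks with DMED-modified linkages.
TBPAS3: tgcatTTCGCGCTctaag
TBP2-AS167: tcatcGTATGGAgtcat
TLF-AS93: atatcCAGTGCCacatc

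Expression was measured by sequencing of ribosomal RNA-depleted libraries, and the authors' deposited table gives, for each group, the mean of read counts divided by DEseq size factors (normalized counts). The reads of each library were recovered from these means, and the libraries are called deeper and shallower by their recovered reads, 2523060 and 1414476 in TKD against 5222085 and 3436848 in control embryos over the 45088 entries solved in all libraries. A few abundant entries could not be solved. The entries solved in TKD held 94.6% of the summed TKD signal, and those solved in control embryos held 89.2% of the control signal. The entries solved in all libraries held less than 94.6% in TKD. The libraries cannot be tied to the replicate numbers of the labels. Differences were tested with limma-voom over the 17026 genes that reached 10 reads in 2 or more libraries, at a Benjamini-Hochberg adjusted p under 0.1. Separate clutches are not stated for the samples, and the p-values therefore cover only the spread between these 4, which may be technical. Of the targeted mRNAs, tbp.S was lower in TKD embryos, at 32.9 and 19.8 normalized counts against 57.8 and 87.7 in control embryos (log2 fold change −1.32 ± 0.47 SE, adjusted p = 0.0943 by limma-voom), but this call was lost in 6 of 12 other fits, with adjusted p between 0.0206 and 0.259. The entry tbp.L did not pass (adjusted p = 0.638 by limma-voom). The entry tbpl2.L had at most 13 reads in any library and was not tested. No entry was matched under the symbol tbpl1, so the message for TLF was not checked in these data. The paper checked the knockdown with other assays. On its western blot TBP protein was depleted in TKD embryos, and its RT-qPCR measurements found the messages for TLF and TBP2 reduced. Whether these assays used the embryos that were sequenced is not stated. Markers of the early gastrula mesendoderm and ectoderm had at least 10 reads in some library for 22 of 22 entries, and those of differentiated tissue for 0 of 8, with sums of 0 in the TKD and 3.04 to 7.83 in the control libraries. Of the mesendoderm entries 3 of 14 were lower and 8 higher in TKD embryos. Of the ectoderm entries 5 of 8 were lower and 1 higher, and of the entries for stored maternal mRNA 7 of 7 were higher. Over all genes tested, 14.3% were lower and 10.3% higher, and no difference from these shares was tested. The marker lists are short and count homeologs separately. The summed maternal entries stood at 5746 and 5736 normalized counts in TKD against 2018 and 2101 in control embryos, and those of the ectoderm at 1530 and 1576 against 3854 and 3438. The part of these shifts in the results for znf genes was not tested.

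Of the 135 znf entries, 124 had reads in some library and 11 had none. The test could be run on 101 entries. The other 34 had at most 17 reads in any library, and were left out for low counts; they include both homeologs of znf148, znf536, znf804a and znf385a. Of the 101 entries, znf185.S and znf438.S reached 10 reads only in control libraries and znf521-like.S only in TKD libraries, so these could enter the test only by being unequal. Without the filter on low counts, the 23 entries with reads among the 34 were tested too, and 0 passed by limma-voom, with 1 at an unadjusted p under 0.05.

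Most znf entries did not pass the test. Of the 101 entries tested, 13 (12.9%) were lower in TKD embryos and 7 (6.93%) were higher by limma-voom, and 81 did not pass. Over all genes tested, 14.3% were lower and 10.3% were higher, so both shares of znf entries lay near or below those of all genes. Of the 98 entries that reached 10 reads in both groups, 12 were lower and 6 higher. No share over all genes was computed under this condition. The median log2 fold change of the znf entries was −0.13 (quartiles −0.49 and 0.30), against 0.037 for all genes tested (quartiles −0.60 and 0.57). A change of less than 2-fold was measured for 82 entries (81.2%), against 72.8% of all genes tested. The TKD values both lay under the 2 control values for 35 entries (34.7%, against 30.7% of all genes tested) and over them for 25 entries (24.8%, against 29.9%), and the groups overlapped for 41. Scaling by library totals raised the median of all genes by 0.18 on the log2 scale, and 11 znf entries were then lower and 13 higher, against 11.6% and 16.2% of all genes.

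**Figure D1:**
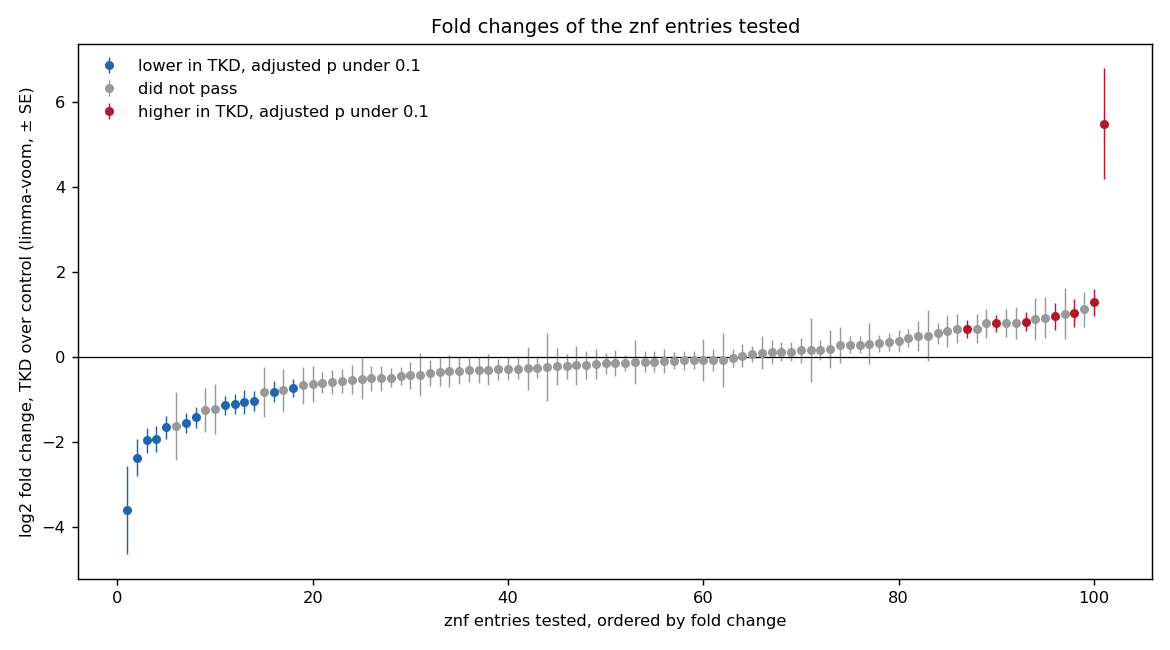
log2 fold change of TKD over control embryos (vertical axis, limma-voom, bars ± SE) for the 101 znf entries tested, ordered along the horizontal axis; blue and red points passed the threshold. The 13 lower and 7 higher entries sit mainly at the ends of a distribution in which 82 entries lie within 1 log2 unit of 0; the point near 5.50 is znf521-like.S and the lowest point is znf185.S.

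The largest decreases among well-measured entries (a mean of at least 20 normalized counts) were those of znf318-like and znf638, in both homeologs. ZNF638 is a nuclear RNA-binding protein in mammals, and the mouse counterpart of ZNF318 is needed in B cells to express IgD. Transcripts of znf638.S, the most abundant of these by read count, stood at 324.4 and 186.9 normalized counts in TKD embryos, against 842.3 and 1177 in control embryos. The group means were 255.6 in TKD and 1010 in control embryos, a log2 fold change of −1.95 ± 0.30 (SE, adjusted p = 0.00703 by limma-voom). Its homeolog znf638.L was at 100.6 and 71.1 in TKD against 257.1 and 299.1 in control embryos (log2 fold change −1.65 ± 0.28 SE). In both homeologs the deeper TKD library was the higher one and still lay far below either control library.

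Transcripts of znf318-like.S were at 24.4 and 23.2 normalized counts in TKD embryos, against 108.0 and 151.1 in control embryos. This was the largest decrease of a well-measured entry, with a log2 fold change of −2.36 ± 0.44 (SE, adjusted p = 0.0135 by limma-voom). Those of znf318-like.L were at 50.8 and 43.0 in TKD against 196.2 and 167.5 in control embryos, a log2 fold change of −1.92 ± 0.31 (SE, adjusted p = 0.00868). In both homeologs the TKD libraries lay close together and far from the control libraries.

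The homeologs of znf292, a large zinc finger protein linked to neurodevelopmental disorders in humans, fell together. In TKD embryos znf292.L had 224.7 and 173.6 normalized counts, against 516.2 and 671.0 in control embryos (log2 fold change −1.54 ± 0.24 SE, adjusted p = 0.00802 by limma-voom). The values of znf292.S were 205.9 and 163.7 in TKD and 337.2 and 433.0 in control embryos (log2 fold change −1.02 ± 0.24 SE, adjusted p = 0.0296 by limma-voom). The groups did not overlap, and znf292.S missed the threshold without the shallower TKD library (adjusted p = 0.1004 by limma-voom).

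Both entries under the name znf605 also fell. The entry znf605.1 had 125.1 and 160.4 normalized counts in TKD against 402.6 and 335.9 in control embryos, and znf605.S had 214.4 and 246.4 against 553.2 and 444.7. Their log2 fold changes were −1.41 ± 0.24 and −1.12 ± 0.22 (SE, adjusted p = 0.0106 and 0.0163 by limma-voom). Unlike znf638 and znf292, these transcripts were higher in the shallower than in the deeper TKD library, and the difference between the groups exceeded that between the libraries of a group in either case.

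The L homeologs of znf462-like and znf106 decreased about as much. ZNF462 is needed for normal brain development in humans, and the mouse counterpart of ZNF106 is an RNA-binding protein needed in motor neurons and muscle. Transcripts of znf462-like.L stood at 287.7 and 211.7 normalized counts in TKD against 487.3 and 593.5 in control embryos (log2 fold change −1.09 ± 0.23 SE, adjusted p = 0.0216 by limma-voom). Those of znf106.L stood at 361.1 and 213.3 in TKD against 538.5 and 659.2 in control embryos (log2 fold change −1.05 ± 0.27 SE, adjusted p = 0.0396 by limma-voom). The call of znf106.L was lost without the shallower TKD library (adjusted p = 0.127).

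The homeologs of znf609, whose mouse counterpart works with the cohesin loader and the Integrator complex in neural progenitors, were named after their values were seen. In TKD embryos znf609.S was at 111.9 and 140.6 and znf609.L at 144.8 and 143.9 normalized counts, against 220.1 and 209.8 and against 240.9 and 234.9 in control embryos. These were the smallest decreases that passed, with log2 fold changes of −0.80 ± 0.24 and −0.72 ± 0.22 (SE, adjusted p = 0.0585 and 0.0644 by limma-voom). The remaining decreased entry, znf185.S, also named after its values were seen, had 0 reads in either TKD library and 12 in each control library. With a floor of 3 reads assumed over the TKD group, znf185.S was 4.11-fold lower than in control embryos. This ratio leaves out the counting error of the control reads and is not a lower bound. This entry reached the minimum count through the control group alone, so its test is not given. ZNF185 is a LIM domain protein of the actin cytoskeleton in mammals and not a classical zinc finger factor. Of the 10 well-measured entries with the largest decreases among those that passed, which were chosen for passing, 8 also passed in every alternative fit in which they were tested, and the exceptions were znf292.S and znf106.L. The homeologs of znf609 are not among these 10. With scaling by library totals, 11 of the 13 decreased entries kept their call, and these included all 10. The call therefore did not hold for both homeologs of znf609 in that fit.

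**Figure D2:**
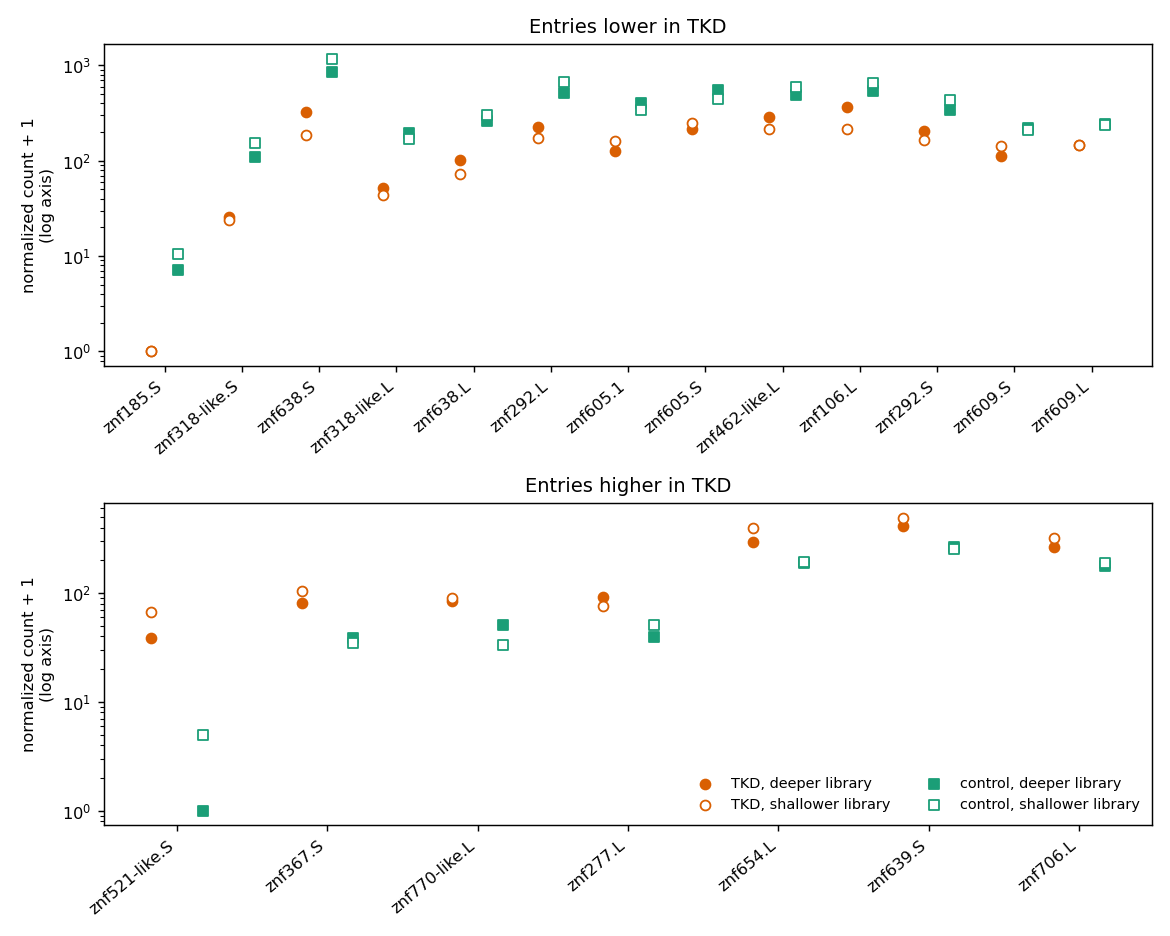
Normalized counts + 1 on a log axis for the 13 znf entries lower (top) and the 7 higher (bottom) in TKD embryos; circles are TKD and squares control libraries, filled for the deeper and open for the shallower library of each group. In all 20 entries the TKD libraries lie on 1 side of the control libraries, and znf185.S in TKD and znf521-like.S in the deeper control library are at 0 reads.

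Among the transcripts that increased, znf521-like.S stood apart. It was at 37.6 and 66.1 normalized counts in TKD embryos, 40 reads in each library, against 0 and 3.91 in control embryos, from 0 and 5 reads. The pooled ratio was 31.2, with an exact 95% interval of 12.8 to 98.6 that covers counting error only. The entry was thus nearly absent from control embryos at stage 10.5 and present in both TKD samples. In mammals ZNF521 is a regulator of blood stem cells and of the entry of embryonic stem cells into the neural lineage. The entry znf521-like.S reached the minimum count through the TKD group alone, so its test is not given. The ratio, its interval and the fitted values do not allow for this selection. The fitted log2 fold change was 5.50, and without the deeper control library, which had no reads, it was 3.46.

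The other increases were smaller. For znf367.S the TKD libraries had 79.9 and 102.5 normalized counts against 37.5 and 33.7 in the control libraries, a log2 fold change of 1.30 ± 0.32 (SE, adjusted p = 0.0330 by limma-voom). For znf639.S they had 414.7 and 491.1 against 262.2 and 251.3 (log2 fold change 0.80 ± 0.20 SE, adjusted p = 0.0341), and for znf654.L 297.1 and 396.9 against 186.6 and 191.0 (0.84 ± 0.22 SE, adjusted p = 0.0421). The control libraries of these 3 entries were nearly equal, and the shallower TKD library was the highest in each.

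The remaining 3 increases lay close to the threshold. For znf770-like.L the values were 82.7 and 89.3 normalized counts in TKD against 49.7 and 32.1 in control embryos (log2 fold change 1.04 ± 0.33 SE, adjusted p = 0.0727 by limma-voom). For znf277.L, whose mouse counterpart binds the Polycomb protein BMI1, they were 91.2 and 74.4 in TKD against 38.5 and 50.1 in control embryos (0.97 ± 0.32 SE, adjusted p = 0.0763). For znf706.L, the counterpart of a gene that promotes exit from self-renewal in mouse embryonic stem cells, they were 267.0 and 319.1 in TKD against 174.9 and 187.9 in control embryos (0.68 ± 0.21 SE, adjusted p = 0.0694). The nearest entry outside the threshold was znf711.L, at 59.2 and 36.4 in TKD against 21.8 and 23.5 in control embryos (adjusted p = 0.102). None of the 7 increases passed in every alternative fit in which it was tested. The call of znf277.L was lost in 7 of 13 other fits, that of znf706.L in 5 and that of znf770-like.L in 3. The count of increased entries rested on both TKD libraries and fell when either was left out. The count of higher genes over all genes tested fell in these fits as well. Without the shallower TKD library, the 6 of the 7 increased entries that could still be tested had log2 fold changes of 0.56 to 1.15.

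Of the 6 znf entries with the largest read counts, which are not corrected for transcript length, 5 did not pass, and znf638.S is the exception. The most abundant, znf326.S, encodes the counterpart of a human protein that couples splicing to elongation by RNA polymerase II. It had 1319 and 982.2 normalized counts in TKD against 1006 and 1494 in control embryos, and znf326.L had 583.9 and 305.9 against 457.9 and 620.9. The groups overlapped in both homeologs (log2 fold changes −0.099 ± 0.25 and −0.29 ± 0.31 SE, adjusted p = 0.817 and 0.561 by limma-voom). In both, the deeper TKD and the shallower control library were the higher ones of their groups, an order found in 41 of the 101 entries tested. The opposite order was found in 30, and neither share was computed over all genes.

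The spindle and kinetochore protein gene znf207 had 491.8 and 558.9 normalized counts in TKD against 533.5 and 617.0 in control embryos for the S homeolog, a log2 fold change of −0.13 ± 0.20 (SE). For znf207.L the log2 fold change was −0.37 ± 0.30 (SE, adjusted p = 0.440 by limma-voom). Counts of znf706.2.S also overlapped, at 558.5 and 663.1 in TKD against 555.8 and 588.0 in control embryos. For znf574.S both TKD libraries, at 679.8 and 816.9, were above the control libraries at 623.7 and 559.8, whereas znf574.L, with 14.1 and 36.4 against 47.2 and 24.3, overlapped. The gene of ZNF281, a factor of the pluripotency network in mouse embryonic stem cells, had 533.1 and 377.0 normalized counts in TKD against 642.5 and 619.3 in control embryos for znf281.L, and 483.3 and 309.2 against 468.0 and 494.0 for znf281.S. None of these entries passed (adjusted p between 0.184 and 0.793 by limma-voom).

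The members with a known role were read in 3 lists of symbols, which do not hold every znf gene with such a role. The genes znf609 and znf106 are on none of them, and znf277, znf207, znf706 and znf706.2 were listed with RNA proteins. The calls on each list depend on these assignments. On the list of factors at core promoters and in chromatin, 0 of 18 entries tested were lower and 0 were higher by limma-voom, against 14.3% and 10.3% of all genes tested, with 1 in each direction at an unadjusted p under 0.05 and 0 called by limma with a trend on log2 values. Their median log2 fold change was −0.063 (from −0.59 to 0.93), against 0.037 for all genes tested. The group includes znf592, whose protein works with ZNF687 in a chromatin complex in human cells. Its L homeolog had 196.5 and 193.5 normalized counts in TKD against 173.4 and 182.4 in control embryos, and its S homeolog 237.0 and 234.8 against 170.9 and 197.3. It also includes znf335-like, the counterpart of a component of a histone methyltransferase complex, with log2 fold changes of −0.14 ± 0.25 (L) and −0.065 ± 0.22 (S, SE), and znf410.L, the counterpart of an activator of the chromatin remodeler gene CHD4 (0.81 ± 0.37 SE, adjusted p = 0.172). The promoter-binding factors znf143, znf76 and znf384 on this list were not matched by symbol and are not analysed here.

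Of entries for developmental regulators, 14 were tested and 12 did not pass. The entry znf462-like.L was lower (7.14%, against 14.3% of all genes tested), and znf521-like.S was higher. The higher share, also 7.14%, rests on znf521-like.S alone, which could enter the test only by being unequal. It therefore cannot be set against the share of all genes. The 14 entries, znf521-like.S included, had a median log2 fold change of −0.29. The homeologs of znf750, a regulator of epidermal differentiation in humans, lay on 1 side: znf750.L was at 74.3 and 66.1 normalized counts in TKD against 98.9 and 112.7 in control embryos, and znf750.S at 75.2 and 62.8 against 109.5 and 98.6. Their log2 fold changes of −0.55 ± 0.28 and −0.57 ± 0.28 (SE) did not pass (adjusted p = 0.216 and 0.210 by limma-voom). Transcripts of znf423.L, whose product takes part in BMP signaling to DNA in *Xenopus*, overlapped between the groups, at 61.1 and 90.9 in TKD against 85.7 and 79.9 in control embryos. Those of znf703.S, a member of a family of co-repressors, overlapped as well, at 49.8 and 54.6 in TKD against 51.7 and 69.7 in control embryos. Its homeolog znf703.L lay below control, at 61.1 and 46.3 in TKD against 66.9 and 70.5 in control embryos. The log2 fold change of znf703.L, −0.31 ± 0.32 (SE), did not pass (adjusted p = 0.543 by limma-voom).

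On the list of RNA and ribosome proteins, 4 of 16 entries tested were lower (25.0%, against 14.3% of all genes tested), 2 were higher (12.5%, against 10.3%) and 10 did not pass. The lower entries are the homeologs of only 2 genes, znf638 and znf318-like, and the higher ones are znf277.L and znf706.L. For these 2 higher entries, and for znf207 on the same list, the roles named above are not in RNA or at the ribosome. The list had a median log2 fold change of −0.10, against 0.037 for all genes tested. Transcripts of znf598, the ubiquitin ligase that marks collided ribosomes, overlapped between the groups. They were at 221.9 and 258.0 normalized counts in TKD against 251.0 and 230.2 in control embryos for znf598.L, and at 271.7 and 395.2 against 391.5 and 300.6 for znf598.S. The log2 fold changes were −0.024 ± 0.21 and −0.10 ± 0.25 (SE).

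Both homeologs were tested for 36 znf genes. They had the same direction in 27 pairs (75.0%), against 69.4% of 3669 pairs over all genes tested, and the median absolute difference between the log2 fold changes of L and S was 0.27, against 0.51 over all pairs. In 4 pairs both passed, and all 4 (znf292, znf318-like, znf609 and znf638) were lower. In 5 pairs only 1 homeolog passed, and whether the homeologs differ was not tested. The shares of pairs with both or only 1 homeolog called were not computed over all genes. These counts of pairs therefore cannot be set against a background. For znf654 the values were alike, with a log2 fold change of 0.84 ± 0.22 for L and 0.81 ± 0.34 for S (SE), although only L passed. For znf106 they were −1.05 ± 0.27 (L) and 0.11 ± 0.39 (S), for znf462-like −1.09 ± 0.23 (L) and −0.11 ± 0.52 (S), for znf639 0.039 ± 0.27 (L) and 0.80 ± 0.20 (S), and for znf706 0.68 ± 0.21 (L) and 1.03 ± 0.59 (S). The partner of znf106.L had far fewer reads, with znf106.S at 32.9 and 29.8 normalized counts in TKD against 28.4 and 31.3 in control embryos, while znf639.L had 132.6 and 172.0 against 166.8 and 120.6. The widest gap was that of znf518b, with log2 fold changes of −0.30 ± 0.28 (L) and 0.93 ± 0.49 (S), neither of which passed.

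**Figure D3:**
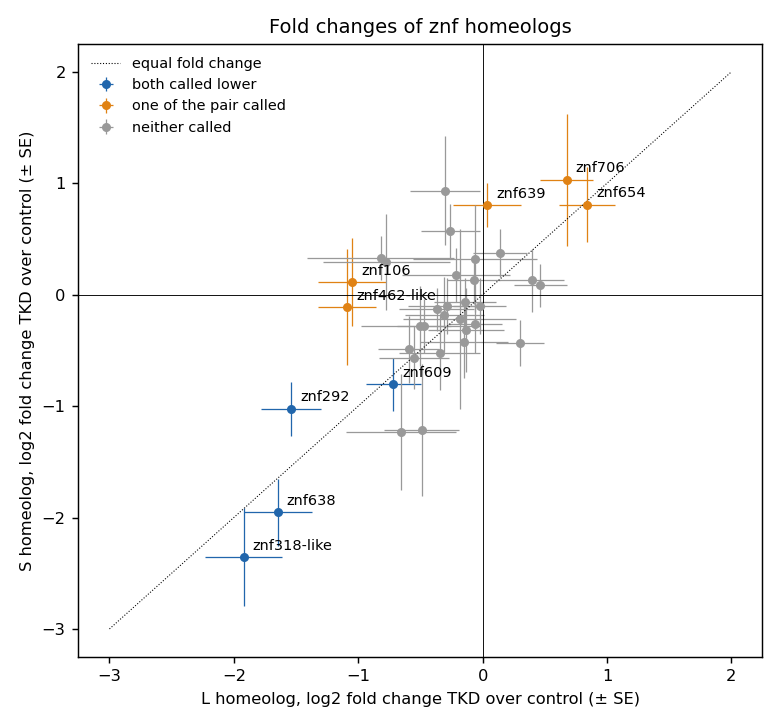
log2 fold change of TKD over control embryos for the L (horizontal) and S (vertical) homeologs of 36 znf genes, with bars of ± SE and a dotted line of equal fold change. The 4 pairs in which both homeologs were lower lie at the lower left near the line, and znf106, znf462-like and znf639 lie off it.

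Added up over the 135 entries, the family held 15874 and 14763 normalized counts in TKD embryos, against 17266 and 18952 in control embryos. In the authors' means this is 15319 in TKD and 18109 in control embryos, so TKD embryos stood at 84.6% of control, close to the sum over all genes (84.5%). In CPM of these recovered reads, which lack the unsolved abundant entries, the family had 6691 and 6312 in TKD against 6520 and 7043 in control embryos, and these ranges overlapped. No test of the sum was made. The entries below control summed to a deficit of 4423 normalized counts and those above to a surplus of 1633. The 13 entries called lower made up 69.4% of that deficit, and znf638 alone 21.4%. These entries were called from the same values, so a large share follows in part from their choice. No such share was computed over all genes.

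Among the 47 znf entries with a mean of at least 100 normalized counts, 11 were lower and 3 higher, and among the 54 entries below that mean, 2 were lower and 4 higher. Over all genes tested, 22.4% of those with a mean of at least 100 and 8.93% of the others were lower, and 12.7% and 8.66% were higher, so decreases were called more often at high counts there as well. The median standard error of the log2 fold change was 0.24 for the znf entries with a mean of at least 100 and 0.42 for the others.

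Another naming family of zinc finger genes, zbtb, whose proteins join zinc fingers to a BTB domain, had a median log2 fold change of 0.30 over 48 entries tested, of which 5 were higher (10.4%, against 10.3% of all genes tested) and 0 lower (against 14.3%) by limma-voom. At an unadjusted p under 0.05, 2 zbtb entries were lower, and limma with a trend on log2 values called 1. The znf entries had 7 higher and 13 lower of 101, and the difference between the families was not tested.

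**Figure D4:**
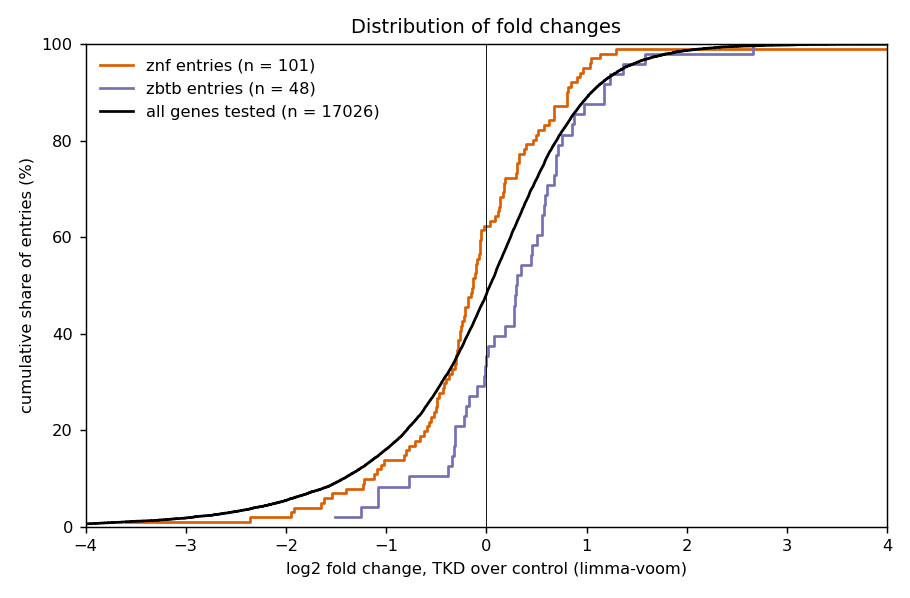
Cumulative share of entries (vertical axis, percent) by log2 fold change of TKD over control embryos (horizontal axis, shown from −4 to 4) for the 101 znf entries, the 48 zbtb entries and all 17026 genes tested. The znf curve is steeper than that of all genes and crosses 50% at −0.13, against 0.30 for zbtb and 0.037 for all genes.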

How the data were processed

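Reads of 75 nt were mapped by the authors with STAR to genome assembly JGI 9.1, counted per gene model and compared with DEseq. For the counting program and all versions: not given in the sources used here. In the deposited table, signal values are group means of read counts divided by size factors. Its columns of fold changes and P-values hold the authors' own comparison and were not used. The table holds 1 blank line.

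Each group mean adds a whole multiple of one step per library, so the reads of both libraries were solved as the only solution for 45094 (TKD) and 45088 (control) of 45098 entries, with residuals of at most 5.23e-09 below a mean of 100. Recovered size factors came to 1.06 and 0.605 (TKD) and to 1.97 and 1.28 (control). The entries left out are abundant. The table has no counts per library, so the planned limma-voom test (limma 3.58.1, R 4.3.3) ran on these reads, scaled by the recovered size factors, without a replicate block; recovery and test were tested on simulated data. Intervals cover counting error only.

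The members, lists and alternatives were chosen with earlier results of these data known. Named are the 10 largest decreases and increases past the threshold with a mean of at least 20 normalized counts, the 6 most abundant members, role list members past the threshold, tested homeolog partners and the knockdown targets; further names serve as examples of their lists. Entries ending in -like were read under their base symbol in the role lists. Symbols of 99 members matched RefSeq gene names of assembly Xenopus_laevis_v10.1 and 2 a synonym; no coordinates were used. Scripts ran in Python 3.11.15 (SciPy 1.17.1, pandas 2.3.3, NumPy 2.4.6; figures, matplotlib 3.10.9). Alternatives were other scalings, filters, pseudocounts and thresholds, leaving out each library, thinning and adding up homeologs; counts over members with a mean of at least 20 were added after seeing the data.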

Additional observations from a re-analysis of the deposited data

How the results depend on the processing

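No paired analysis was possible because the recovered libraries carry no replicate numbers. Besides the limma-voom fit reported, 13 other fits were run. The fit reported gave 13 znf entries lower and 7 higher, against 2438 and 1749 over all genes tested. Leaving out a library changed these counts in the same direction for znf entries and all genes. A threshold of 0.05 gave 4 higher (898 over all genes), and one of 0.01 gave 4 lower and 0 higher (528 and 134 over all genes). At an unadjusted p under 0.05, 10 znf entries were higher. At least 2-fold changes were 3 among the higher entries (1151 over all genes). L entries alone gave 6 lower and 4 higher, and S entries alone 6 lower and 3 higher, with no share over all genes computed. Adding up homeologs gave 8 lower of 66 tested, against 15.0% over all genes. Library totals gave 13 higher, a median log2 fold change of 0.044 in place of −0.13 and a family sum of 95.9% of control. These totals cover the entries solved in all libraries, which held less than 94.6% (TKD) and 89.2% (control) of all signal, respectively. The median was −0.068 without a filter, −0.22 with thinned libraries, −0.074 with homeologs added up, −0.21 for L entries alone and −0.12 to −0.080 when libraries were left out; it stayed 0.11 to 0.26 below that of all genes in every fit.

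Of 409 results for the 32 named znf entries, 366 kept their direction and side of the threshold, 21 lost and 7 gained a call, and 15 reversed. Reversed were znf326.S with library totals (0.083), znf207.S (0.046) and znf462-like.S (0.066) likewise, and znf106.S (−0.96) and znf574.L (0.29) with homeologs added up, where the partner holds most reads. When libraries were left out, values reversed for znf326.S (−0.39 to 0.18), znf326.L (−0.80 to 0.13), znf462-like.S (−0.99 to 0.42), znf706.2.S (−0.033 to 0.22), znf639.L (−0.17 to 0.30), znf574.L (−1.31 to 0.042) and znf281.S (−0.63 to 0.0085). None of these entries passed in the fit reported. Apart from homeologs added up, the cause was not tested. Over all genes 1749 were higher, against 2750 with library totals, 877 and 1123 without the deeper and the shallower TKD library and 1015 without the deeper control library. With 2 libraries per group, SEs of 0.19 to 1.30 on the log2 scale limit what could be called.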

Other observations

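Other families of zinc finger genes had shares of calls that are given beside those of all genes tested, 14.3% lower and 10.3% higher in TKD embryos; no difference from these was tested. Of 26 klf and sp entries tested, 4 were lower (15.4%) and 2 higher (7.69%) by limma-voom, with a median log2 fold change of 0.21. Of the lower ones, sp5.S and sp7.S reached 10 reads only in control libraries. These could be tested only by being unequal, and the share of lower entries includes them. Transcripts of sp5.L, a target of Wnt signaling, stood at 12.2 and 62.8 normalized counts in TKD against 127.8 and 150.3 in control embryos, and those of klf5.L at 28.2 and 24.8 against 127.8 and 86.1. The higher entries were the homeologs of klf15.2, with klf15.2.L at 150.4 and 211.7 in TKD against 46.1 and 63.4 in control embryos. Among zbtb entries the largest increase was that of zbtb18.S, at 47.0 and 39.7 in TKD against 7.10 and 6.26 in control embryos (log2 fold change 2.66 ± 0.55 SE, adjusted p = 0.0185 by limma-voom).

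Of 22 entries for zinc finger proteins of the CCCH type tested, which bind RNA, 4 were lower (18.2%) and 1 was higher (4.55%) by limma-voom, with a median log2 fold change of −0.31. Among the lower ones, both homeologs of zc3h12c reached 10 reads only in control libraries. They could enter the test only by being unequal, and the share of lower entries rests in part on them. The homeologs of zc3h12c, of a family that cleaves mRNA in mammals, had few reads in TKD embryos: zc3h12c.L was at 2.82 and 3.31 normalized counts in TKD against 44.6 and 50.1 in control embryos, and zc3h12c.S at 0 and 1.65 against 14.7 and 18.8. A pair of related genes of mRNA decay factors moved in opposite directions. Transcripts of zfp36l1.L fell to 120.4 and 135.6 normalized counts in TKD embryos, against 220.1 and 220.0 in control embryos, and those of zfp36l2.1.L rose to 178.7 and 162.1 in TKD embryos, against 29.4 and 38.4 in control embryos. Of 9 zfp entries, which include these 2, 1 was lower (11.1%) and 3 were higher (33.3%), the others being the homeologs of zfp91. These genes were chosen after their values were seen.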
